A study of Mus musculus with 15 samples.

Results

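Krt80, Prkg2, Spp1 and Ano3 are 4 genes of B16-F10 mouse melanoma cells whose transcripts were among those most raised by knockdown of Ezh2. They were chosen by name from the difference between cells given an siRNA against Ezh2 (siEzh2) and cells given a scrambled siRNA (scr), so that difference, and every comparison that uses the siEzh2 or scr libraries, is given for them as a description with no test. All 4 were found by Ensembl identifier among the 46078 genes of the count table and all 4 passed the filter on low counts, which left 15152 genes. Beside the siRNA arm stood a compound arm in which cells received 2 µM GSK126, 2 µM DZNep or the solvent DMSO alone. Each of the 5 groups had 3 libraries of total RNA, 15 in all. Which groups were run together is not given in the labels, and the DZNep titles read B16 where the others read B16-F10. By these titles all groups are B16 tumour cells, and no edit, allele or other agent is named in the labels. How long the treatments lasted and which siRNA sequences were used is not given in the sources used here. No label ties the replicates to separate cultures. Each p-value is therefore set against the spread of these libraries alone, which may be technical.

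EZH2 carries the methyltransferase activity of PRC2, a Polycomb complex that modifies a lysine in the tail of histone H3. The mark is associated with the silencing of genes of other tissues and developmental stages. GSK126 blocks the methyltransferase activity of EZH2 and leaves the protein in place, whereas DZNep inhibits S-adenosylhomocysteine hydrolase, an enzyme that all cellular methylation reactions depend on. In melanoma cells EZH2 is studied for its part in growth, invasion and loss of pigmentation.

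The 4 proteins have unrelated functions. Krt80 encodes a type II keratin, an intermediate filament protein of epithelia (ENSMUSG00000037185, chromosome 15, 101347444 to 101370162, minus strand, GRCm38 here and for all coordinates). Prkg2 encodes cGMP-dependent protein kinase II, a membrane-anchored kinase of intestine, bone growth plate and brain (ENSMUSG00000029334, chromosome 5, 98929773 to 99037351, minus strand). Spp1 encodes osteopontin, a secreted phosphoprotein of bone matrix, macrophages and many tumours that binds integrins and CD44 (ENSMUSG00000029304, chromosome 5, 104435118 to 104441050, plus strand). Ano3 encodes anoctamin 3, a member of the TMEM16 family of membrane proteins known mainly from neurons (ENSMUSG00000074968, chromosome 2, 110655201 to 110950923, minus strand).

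The starts of Spp1 and Ano3 are shown because CG dinucleotides at gene starts are a sequence feature known from PRC2 target genes. That the genes rose together in the knockdown follows from how they were chosen. Spp1 and Ano3 matched the RefSeq promoter table (GRCm38.p6). The 250 bases before the first listed start of each are given 5′ to 3′ on the gene's strand, with every CG in capitals, at chr5:104434861-104435110 (plus strand) for Spp1 and chr2:110950245-110950494 (minus strand) for Ano3. This Ano3 window lies inside the gene span given above, so RefSeq and that annotation place the Ano3 start differently.
Spp1: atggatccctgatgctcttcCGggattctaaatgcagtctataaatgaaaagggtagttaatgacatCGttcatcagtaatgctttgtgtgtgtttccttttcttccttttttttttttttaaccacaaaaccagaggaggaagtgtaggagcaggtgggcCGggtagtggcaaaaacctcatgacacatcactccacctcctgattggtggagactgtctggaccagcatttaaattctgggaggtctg
Ano3: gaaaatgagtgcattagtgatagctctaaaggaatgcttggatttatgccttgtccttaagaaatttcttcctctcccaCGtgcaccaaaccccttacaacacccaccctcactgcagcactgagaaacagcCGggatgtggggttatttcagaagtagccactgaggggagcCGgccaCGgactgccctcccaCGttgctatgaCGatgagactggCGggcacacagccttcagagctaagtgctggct
The motif counted was CG, which reads the same on both strands. The Spp1 window holds 3 and the Ano3 window 7, against a median of 6 over 32851 windows of the same length, of which 92.1% hold at least 1. As many as in the Spp1 window are found in 71.0% of windows and as many as in the Ano3 window in 46.3%, so both lie in the middle of the distribution. The table lists a second start for each gene, and the windows before these lie inside the gene spans given above and hold 3 CG each.

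Library totals ranged from 33299524 to 64545747 counts, and 1 count was worth 0.0154 to 0.0306 CPM (counts per 1e6 counts) on TMM-scaled library sizes, the scale of every level below. Mitochondrially encoded transcripts took 6.17% to 10.6% of counts. All 10 melanocyte markers checked (Pmel, Tyr, Tyrp1, Dct, Mlana, Mitf, Sox10, Slc45a2, Oca2 and Gpr143) had a mean of at least 1 CPM in every group, and their sum lay between 19076 and 25813 CPM. That sum was 19076 to 20167 CPM in scr, below the 24284 to 25749 CPM with siEzh2 and the 25482 to 25813 CPM in DMSO. The 4 genes were also lowest in scr, but with siEzh2 they stood above DMSO, where the sum overlapped it. Tyr went the other way, at 71.1 CPM in DMSO and 87.9 in scr. With GSK126 (21551 to 21928 CPM) and DZNep (22295 to 22664 CPM) the sum was below DMSO. From DMSO to DZNep, Dct went from 8770 to 4958 CPM and Pmel from 4561 to 3741, and Mitf and Sox10 were also lower. Tyrp1 went from 9049 to 10514 CPM, and Tyr, Mlana, Slc45a2, Oca2 and Gpr143 were also higher with DZNep. The part of the sum in the differences of the 4 genes was not tested. Among 8 fibroblast markers 3 or 4 reached 1 CPM in each group (sum 17.7 to 23.2 CPM), with Thy1 at 0 counts. The library names end in numbers whose meaning the labels do not give. They are 4 to 9 in the siRNA arm and 13 to 20 in the compound arm, except that GSK126 replicate 1 carries 3, so values for GSK126 are also given without that library.

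Ezh2, the targeted gene, stood at 215, 227 and 215 CPM in the scr libraries and at 37.6, 39.9 and 41.3 CPM in the siEzh2 libraries. The knockdown libraries matched their labels, 5.53-fold lower (log2 −2.47 ± 0.05 SE, adjusted p = 1.22e-17). With DMSO the level was 204, 209 and 208 CPM, with GSK126 208, 212 and 221 CPM, and with DZNep 160, 156 and 150 CPM. GSK126 left the Ezh2 transcript level within 0.05 ± 0.05 of DMSO on the log2 scale (adjusted p = 0.569), and DZNep lowered it 1.33-fold (adjusted p = 3.67e-07).

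Krt80 was scarce in the scr group. It stood at 1.39, 1.57 and 1.49 CPM in scr (204 counts over the group) and at 5.62, 5.17 and 4.91 CPM with siEzh2 (603 counts). Every knockdown library lay above every scr library, by 3.13-fold between the nearest pair, and the fitted difference was 3.52-fold (log2 1.82 ± 0.13). DMSO libraries stood at 1.94, 2.17 and 1.83 CPM, between both siRNA groups. The siEzh2 level was 2.65-fold above DMSO (log2 1.41 ± 0.12) with no overlap, as for the other 3 genes and 13.3% of all genes tested.

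Prkg2, the cGMP-dependent kinase, was the scarcest of the 4 per exon length in the scr group. Its scr libraries held 1.04, 0.953 and 0.952 CPM (136 counts over the group) and its siEzh2 libraries 3.45, 2.69 and 3.08 CPM (354 counts). The siRNA groups did not overlap and differed 3.10-fold (log2 1.63 ± 0.17). DMSO libraries held 1.53, 2.21 and 2.26 CPM, so the siEzh2 level was 1.51-fold above DMSO (log2 0.60 ± 0.15), again without overlap. The processed pseudogene Gm3470 lies within the Prkg2 locus on the same strand with 0 shared exon bases, and was counted 276 times in scr and 420 times with siEzh2, more often than Prkg2 itself in both groups.

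Spp1, osteopontin, stood at 6.42, 5.82 and 5.89 CPM in scr and 21.03, 17.88 and 17.56 CPM with siEzh2. The difference was 3.10-fold (log2 1.63 ± 0.10), and the nearest pair of libraries stood 2.74-fold apart. In DMSO the level was 11.3, 11.9 and 14.3 CPM, close to the middle of the interval between the siRNA groups, and siEzh2 lay 1.49-fold above it (log2 0.58 ± 0.09). The clone gene Gm42793 shares 309 of the 1648 exon bases of Spp1 on the same strand and held 2 to 23 counts per group. How reads in the shared bases were assigned is not given in the sources used here.

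Ano3 was the most counted of the 4. Its level was 32.3, 33.3 and 29.9 CPM in scr and 92.9, 88.5 and 94.5 CPM with siEzh2, a difference of 2.88-fold (log2 1.53 ± 0.07) with no overlap. DMSO libraries stood at 55.9, 56.3 and 47.4 CPM, and siEzh2 was 1.73-fold above them (log2 0.79 ± 0.07). Muc15, a mucin gene, lies inside Ano3 on the other strand and shares 61 of 7218 exon bases. It held at most 44 counts in a group, against 4415 or more for Ano3.

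**Figure D1:**
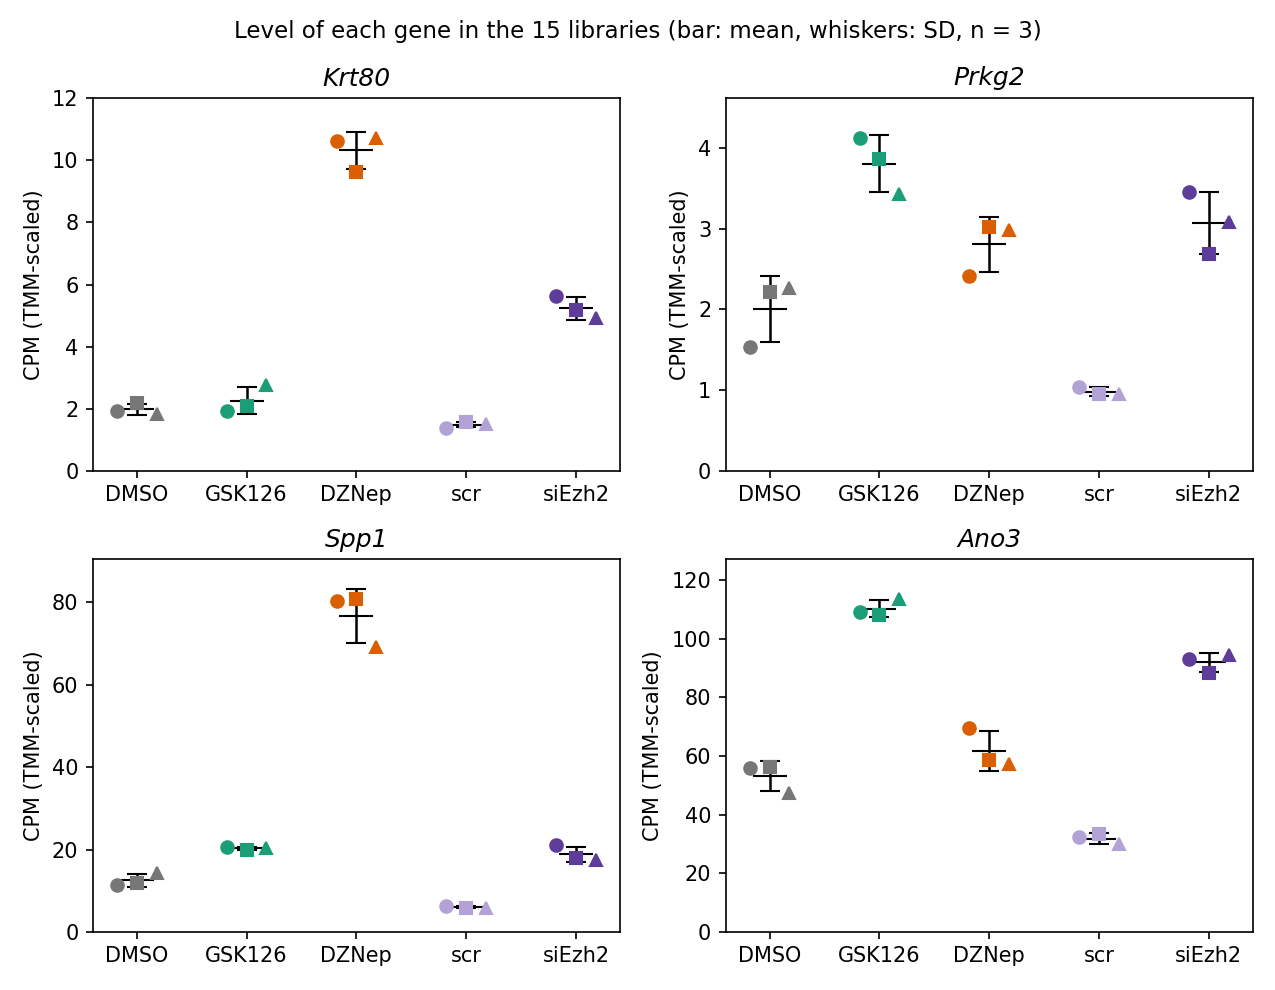
Level of Krt80, Prkg2, Spp1 and Ano3 in each of the 15 libraries (TMM-scaled CPM on the vertical axis from 0, groups on the horizontal axis), with replicate 1 as a circle, 2 as a square and 3 as a triangle, and the mean and SD of 3 libraries in black. In all 4 panels the scr libraries lie lowest and the siEzh2 libraries lie above DMSO, while the highest group is DZNep for Krt80 and Spp1 and GSK126 for Prkg2 and Ano3.

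By definition of the choice, 4 of 4 genes were higher with siEzh2 than in scr, where 13.2% of all genes tested were called higher by edgeR and 20.2% had every siEzh2 library above every scr library. Among the 1797 genes called higher with a mean of at least 2 CPM in the siRNA arm, Krt80 ranked 3, Prkg2 4, Spp1 5 and Ano3 6 by fold change. Over all 15152 genes tested, with no limit on expression or call, they ranked 19, 36, 37 and 45. Vwf (5.60-fold) and Ccn4 (4.10-fold) ranked above them. Ablim1 (2.80-fold), Abca12 (2.74-fold) and Rnase4 (2.69-fold) followed just below Ano3, so no gap set the 4 apart from the genes after them. Prkg2, with a mean of 2.03 CPM over both siRNA groups, lay just inside the limit of expression, through its siEzh2 level of 3.07 CPM against 0.982 in scr.

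For each of the 4 genes, part of the difference from scr lay below the DMSO level. All 3 scr libraries were lower than all 3 DMSO libraries for 4 of 4 genes, against 19% of all genes tested, and a choice by a low scr level favours such genes. Krt80 was 1.33-fold lower in scr than in DMSO (log2 −0.41 ± 0.14). Prkg2 was 2.05-fold lower (−1.04 ± 0.17) and Spp1 2.08-fold lower (−1.06 ± 0.10). Ano3 was 1.67-fold lower (−0.74 ± 0.07). Counted on the log2 scale, the step from DMSO up to siEzh2 made up 77.5% of the siEzh2 to scr difference for Krt80, 51.8% for Ano3, 36.5% for Prkg2 and 35.4% for Spp1. The genes ranked around them had the same arrangement, with 38.7% for Vwf, 56.5% for Ccn4, 39.1% for Ablim1, 36.1% for Abca12 and 19.6% for Rnase4. The siRNA and compound arms differ in the delivery of siRNA, in the DMSO solvent, named for the compound arm alone, and in their library numbers. These cannot be told apart as sources of the difference between scr and DMSO.

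The choice used the siRNA libraries alone, so GSK126 against DMSO was tested. The genes were named with earlier results of these data known, so the tests of GSK126 and DZNep may not be fully independent of the choice. GSK126 raised 3 of the 4 genes, where 7.15% of all genes tested were called higher and 15.6% had all GSK126 libraries above all DMSO libraries. Genes ranked around the 4 varied from DMSO to GSK126. Vwf went from 5.99 to 4.75 CPM, Ccn4 from 33.6 to 31.9 and Rnase4 from 3.68 to 3.73. Ablim1 went from 58.8 to 67.6 CPM and Abca12 from 56.0 to 119. Ano3 rose from 53.2 ± 5.003 to 110 ± 2.91 CPM (SD, n = 3), with 109, 108 and 113 CPM in the GSK126 libraries. That was a 2.07-fold increase (log2 1.05 ± 0.07, adjusted p = 5.26e-09), and the lowest GSK126 library was 1.92-fold above the highest DMSO library. Prkg2 rose 1.88-fold, from 2.00 ± 0.410 to 3.81 ± 0.355 CPM (0.91 ± 0.14, adjusted p = 0.000234), with libraries at 4.13, 3.87 and 3.43 CPM. Spp1 went up to 20.3 ± 0.326 CPM from 12.5 ± 1.56, a 1.61-fold increase (0.69 ± 0.09, adjusted p = 1.98e-05). Its GSK126 libraries at 20.6, 19.9 and 20.3 CPM were the most even of the 4 genes in this group.

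Krt80 was the exception with GSK126. The GSK126 libraries held 1.930, 2.096 and 2.747 CPM, overlapping DMSO, and the difference of 0.20 ± 0.14 on the log2 scale did not pass (adjusted p = 0.356). Its 95% interval ran from −0.08 to 0.48, so its upper end lay below the changes fitted for the other 3 genes. Without GSK126 replicate 1, the library numbered 3, the values were 1.06 for Ano3, 0.86 for Prkg2, 0.68 for Spp1 and 0.30 for Krt80 (adjusted p = 1.24e-07, 0.00222, 0.00019 and 0.22), so the calls were as with it. The Krt80 value rested on GSK126 replicate 3, the highest library, and was 0.04 without it (adjusted p = 0.908).

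DZNep raised 4 of 4 genes against DMSO, with no overlap, in a comparison where 31.2% of all genes tested were called higher and 31.4% had all DZNep libraries above all DMSO libraries. The sizes fell into 2 pairs. Spp1 rose 6.10-fold, to 80.4, 80.8 and 69.2 CPM (log2 2.61 ± 0.09, adjusted p = 2.63e-15). Krt80 rose 5.24-fold, to 10.6, 9.63 and 10.7 CPM (2.39 ± 0.12, adjusted p = 7.9e-13). In both genes the lowest DZNep library was over every library of the other 4 groups, the siEzh2 libraries included. How many of all genes tested did the same against these groups together was not counted. Taken singly, DZNep lay wholly above DMSO for 31.4% of them, above GSK126 for 35.8% and above siEzh2 for 34.2%.

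The other pair changed little with DZNep. Prkg2 stood at 2.42, 3.03 and 2.99 CPM, 1.40-fold above DMSO (0.48 ± 0.15, adjusted p = 0.0086), a call that did not hold without DMSO replicate 1 (0.34, adjusted p = 0.0519). Ano3 stood at 69.6, 58.5 and 57.1 CPM, 1.16-fold above DMSO (0.22 ± 0.07, adjusted p = 0.0149), with a gap of 1.01-fold between the nearest libraries. For Ano3 the call failed without DMSO replicate 3 (0.14, adjusted p = 0.0887), without DZNep replicate 1 (0.12, adjusted p = 0.14) and when the other groups were left out of the fit (0.22, adjusted p = 0.0619).

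The direct test of DZNep against GSK126, both at 2 µM, separated the pairs. Krt80 was 4.56-fold higher with DZNep (log2 2.19 ± 0.12, adjusted p = 2.73e-12) and Spp1 3.78-fold higher (1.92 ± 0.08, adjusted p = 1.22e-13), in a comparison with 32.9% of genes called higher. Ano3 was 1.79-fold lower with DZNep (−0.84 ± 0.07, adjusted p = 4.25e-09) and Prkg2 1.35-fold lower (−0.43 ± 0.14, adjusted p = 0.0124), where 31.7% of genes were called lower. The groups did not overlap for any of the 4 genes, as for 35.8% (DZNep above) and 34.7% (DZNep below) of all genes tested. The Prkg2 call was lost without GSK126 replicate 1 (−0.38, adjusted p = 0.0501) or DZNep replicate 1 (−0.34, adjusted p = 0.0621).

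**Figure D2:**
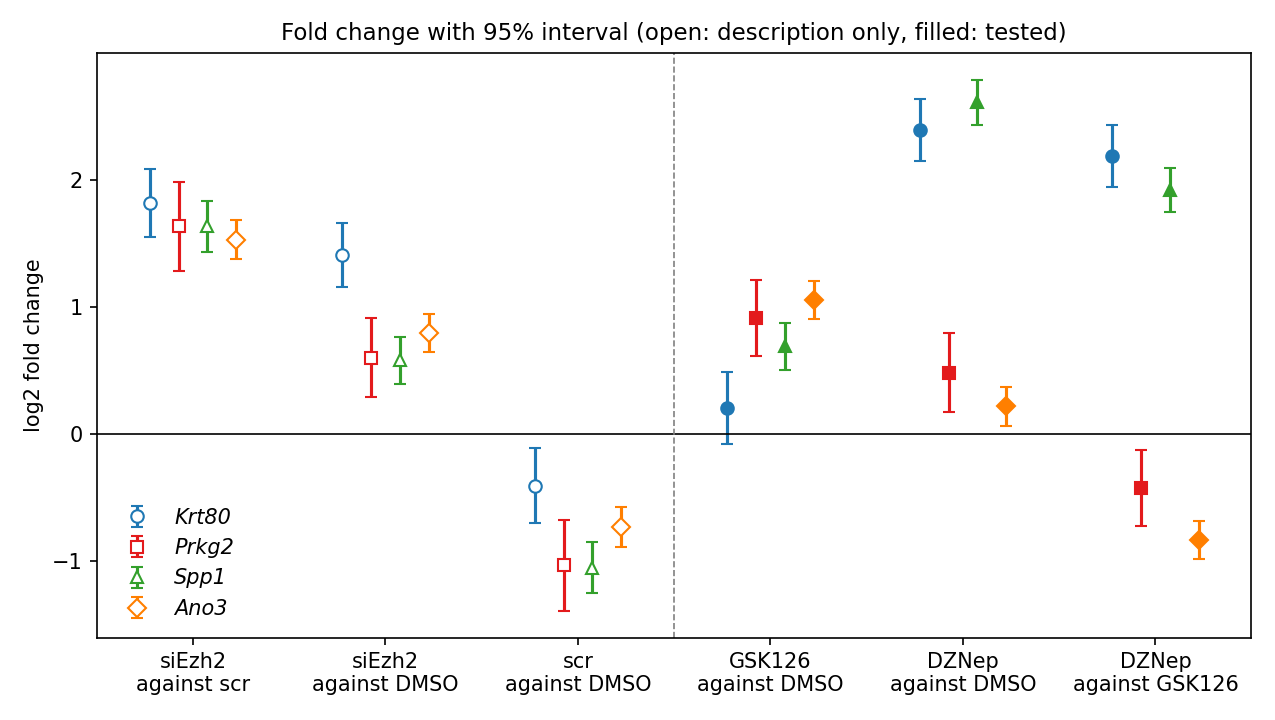
Fitted log2 fold change (vertical axis) of the 4 genes in 6 comparisons (horizontal axis), with 95% intervals from the edgeR standard errors. Open symbols left of the dashed line use libraries that chose the genes and are a description, and filled symbols right of it were tested. The 4 genes lie close together for siEzh2 against scr and split for DZNep against GSK126, with Krt80 at 2.19 and Spp1 at 1.92 above 0, and Prkg2 at −0.43 and Ano3 at −0.84 below 0.

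The order of levels over the 5 groups therefore differed from gene to gene. Krt80 ran DZNep (10.3 ± 0.606 CPM), siEzh2 (5.23 ± 0.362), GSK126 (2.26 ± 0.432), DMSO (1.98 ± 0.171) and scr (1.48 ± 0.0905), and the neighbours GSK126 and DMSO overlapped. Prkg2 ran GSK126 (3.81), siEzh2 (3.07 ± 0.385 CPM), DZNep (2.81 ± 0.340), DMSO (2.00) and scr (0.982 ± 0.0507), with overlaps of siEzh2 with both of its neighbours. Spp1 ran DZNep (76.8 ± 6.58 CPM), GSK126 (20.3), siEzh2 (18.8 ± 1.92), DMSO (12.5) and scr (6.04 ± 0.323), with GSK126 and siEzh2 overlapping. Ano3 ran GSK126 (110), siEzh2 (92.0 ± 3.14 CPM), DZNep (61.7 ± 6.81), DMSO (53.2) and scr (31.9 ± 1.75) with no overlap between neighbours. Against each compound directly, siEzh2 differed by 1.205 ± 0.123 (log2) from GSK126 for Krt80, −0.31 ± 0.14 for Prkg2, −0.11 ± 0.09 for Spp1 and −0.26 ± 0.07 for Ano3. Against DZNep it differed by −0.98 ± 0.11 for Krt80, 0.12 ± 0.15 for Prkg2, −2.03 ± 0.08 for Spp1 and 0.58 ± 0.07 for Ano3. These cross the arms and are descriptions. The siEzh2 libraries lay wholly above those of GSK126 for Krt80 and wholly below for Ano3 (18.9% and 20.6% of all genes tested), and wholly above those of DZNep for Ano3 and wholly below for Krt80 and Spp1 (33.1% and 34.2%).

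Levels between genes can be compared per length only. In CPM per kilobase of exon, DMSO cells held 7.59 of Spp1 and 7.37 of Ano3, against 0.373 of Prkg2 and 0.309 of Krt80. Spp1 and Ano3 were thus close per length, although their CPM differed (12.5 against 53.2). The length of Spp1 includes the bases shared with Gm42793. In DMSO, 61.1% of tested genes lay below Spp1 and 60.4% below Ano3 on this scale, but 15.9% below Prkg2 and 14.3% below Krt80. With DZNep, Spp1 reached 46.6 CPM per kilobase, above 93.0% of tested genes, while Krt80 at 1.61 stayed above 31.2%. In bulk RNA, a change in the number of cells that hold a transcript and in its amount per cell cannot be told apart.

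Over the 15 libraries, the log2 levels of Krt80 and Spp1 had a Pearson r of 0.895 and those of Prkg2 and Ano3 0.914. The mixed pairs had lower values, 0.515 for Krt80 with Prkg2, 0.359 for Krt80 with Ano3, 0.671 for Prkg2 with Spp1 and 0.464 for Spp1 with Ano3. These are descriptions over libraries of 5 groups that share the treatment. Once each group's mean was removed, r was −0.141 for Krt80 with Spp1 and −0.46 for Prkg2 with Ano3. For the mixed pairs it was −0.231 for Krt80 with Prkg2, 0.352 for Krt80 with Ano3, 0.473 for Prkg2 with Spp1 and −0.159 for Spp1 with Ano3. With 3 libraries a group and few counts for Krt80 and Prkg2, these values cannot decide whether replicates carry either pairing.

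Among 12425 other protein-coding genes, those with the most similar pattern were named for each gene. For Krt80 they were Epb41, a membrane skeleton protein (r = 0.982), Met, the receptor of hepatocyte growth factor (0.977), and Lmo7 (0.972). For Spp1 they were Anxa1, annexin A1 (0.992), Mgll, the monoglyceride lipase (0.99), and Fam49a (0.988). Mgll had 187 CPM in scr, 385 with siEzh2, 252 in DMSO, 370 with GSK126 and 1059 with DZNep, the order of Spp1 except that siEzh2 and GSK126 changed places. For Prkg2 they were the transcription factor Stat3 (0.959), Sobp (0.93) and Pik3cb, a phosphoinositide 3-kinase subunit (0.927). For Ano3 they were Dtna, dystrobrevin alpha (0.947), Sobp again (0.935) and Prkch, a protein kinase C (0.934). Sobp stood at 33.1 CPM in scr, 56.1 with siEzh2, 47.9 in DMSO, 60.6 with GSK126 and 48.7 with DZNep.

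**Figure D3:**
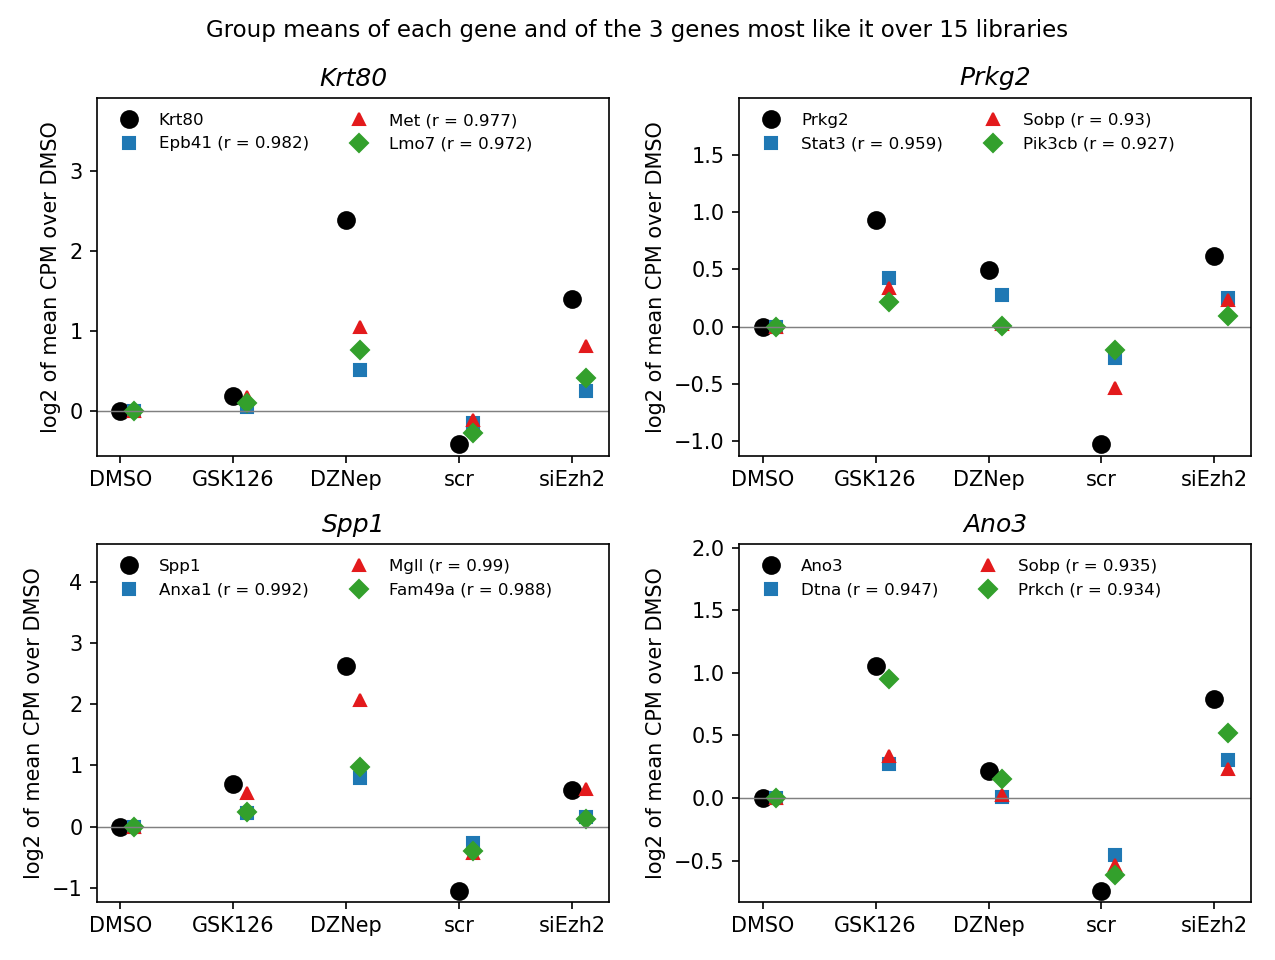
Group means of each of the 4 genes (black circles) and of the 3 genes with the highest Pearson r to it over 15 libraries (coloured symbols, r in the legend), as log2 of the mean CPM over the DMSO mean on the vertical axis. The genes like Krt80 and Spp1 are highest with DZNep and those like Prkg2 and Ano3 are highest with GSK126 or siEzh2.

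For the relatives and neighbours below, changes with siEzh2 are against scr, and those with GSK126 or DZNep are against DMSO. In scr against DMSO, 25.9% of all genes tested were called by edgeR. Krt80 stood nearly alone among keratins, which form paired filaments in epithelial cells. Of 53 other keratin genes 1 passed the count filter, and 38 of the 52 that did not pass had 0 counts in all 15 libraries, which allows up to 0.00465 CPM over the libraries together. The one tested was Krt87, a hair keratin gene that is also the next tested gene after Krt80 on chromosome 15. Krt87 rose 1.35-fold with siEzh2, from 2.74 ± 0.298 to 3.73 ± 0.426 CPM (log2 0.44 ± 0.12, adjusted p = 0.0114), and 2.14-fold with DZNep (1.10 ± 0.12, adjusted p = 9.97e-08). With GSK126 Krt87 was at −0.22 ± 0.13 (adjusted p = 0.297). The siEzh2 call was lost without scr replicate 2 (adjusted p = 0.0631) or siEzh2 replicate 1 (0.0501) or 2 (0.0514). Among 10 markers of keratinocytes and simple epithelium only the cadherin Cdh1 reached 1 CPM. Krt5, Krt14, Krt1 and Krt19 had 0 counts. The summed level of that list was 2.33 to 3.04 CPM in scr, 4.51 to 4.95 with siEzh2, 3.42 to 3.65 in DMSO, 2.58 to 3.49 with GSK126 and 11.3 to 11.7 with DZNep, an order close to that of Krt80, and its part in the Krt80 result was not tested.

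The cGMP pathway around Prkg2 comprises guanylyl cyclases that make cGMP, kinases that read it and phosphodiesterases that break it down. Of 34 listed genes 19 were tested. The related kinase Prkg1 was the most counted of them, at 195 ± 32.7 CPM in DMSO. Prkg1 was at 0.09 ± 0.10 with GSK126 (adjusted p = 0.6) and 0.18 ± 0.10 with siEzh2 (adjusted p = 0.217), and fell by 0.30 ± 0.10 with DZNep (adjusted p = 0.0151). It did not pass without DMSO replicate 1 (adjusted p = 0.0861) or 2 (0.0541), without DZNep replicate 3 (0.0723) and in a fit of those libraries alone (0.0519). With siEzh2 Prkg1 did pass in a fit of the siRNA libraries alone (0.18, adjusted p = 0.0189) and with no count filter (0.17, adjusted p = 0.0407).

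With GSK126, 4 of the 19 cGMP genes rose and 0 fell (7.15% and 5.54% of all genes tested), and the list's median was 0.0757 against −0.00915 for all genes tested. At an unadjusted p under 0.05 5 were higher and 2 lower, and DESeq2 called 4 higher and 0 lower. By edgeR 5 rose and 1 fell with siEzh2 (median 0.175 against −0.0112), where 13.2% of all genes rose and 12.9% fell. DZNep raised 4 and lowered 7 (median −0.154 against 0.00166), where 31.2% of all genes rose and 31% fell. Pde1b, a calmodulin-dependent phosphodiesterase, rose in all 3 comparisons. It stood at 0.642 ± 0.198 CPM in scr and 2.17 ± 0.287 with siEzh2 (3.38-fold, log2 1.76 ± 0.21, adjusted p = 2.34e-06), rose 1.67-fold with GSK126 (adjusted p = 0.0156) and rose 3.98-fold with DZNep (adjusted p = 5.63e-09). The GSK126 call of Pde1b was lost without GSK126 replicate 2 (adjusted p = 0.082). Pde11a rose 1.40-fold with siEzh2 (0.48 ± 0.05, adjusted p = 8.5e-07) and fell with DZNep (−0.84 ± 0.05, adjusted p = 5.23e-11). Pde9a, a cGMP-specific phosphodiesterase, rose 1.58-fold with GSK126 (adjusted p = 0.00357), and Pde10a rose 1.67-fold with DZNep (adjusted p = 3.03e-08). With DZNep, Npr2, the receptor cyclase for C-type natriuretic peptide, fell to 11.7 ± 0.696 CPM from 30.2 ± 0.513 (2.59-fold lower, adjusted p = 1.03e-12). Vasp, a substrate of cGMP kinases that binds actin, fell with siEzh2 (−0.40 ± 0.07, adjusted p = 0.000102) and with DZNep (−0.42 ± 0.07, adjusted p = 1.24e-05).

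Osteopontin belongs to the SIBLING family of bone and tooth matrix proteins, signals through integrins and CD44, and is phosphorylated by the kinase FAM20C. Of 20 listed genes 10 were tested. The relatives of Spp1 in bone, Ibsp and Dmp1, had 0 counts in every library, and Dspp and Mepe did not pass the count filter. Among 8 osteoblast markers, 1 or 2 reached 1 CPM in each group. The list summed to 7.85 to 8.76 CPM with DZNep, where Spp1 was highest, and 4.54 to 6.31 CPM elsewhere. From DMSO to DZNep, Col1a1, which is also on the fibroblast list, went from 0.994 to 3.998 CPM. Runx2 went from 3.982 to 3.999 CPM and Alpl from 0.263 to 0.108, and every other listed gene was below Alpl in both groups. The part of the list in the Spp1 result was not tested. Of 8 macrophage markers only Cd68 reached 1 CPM in any group, Adgre1 and Itgam had 0 counts, and Ptprc had 5 counts in all. That list summed to 2.63 to 4.77 CPM, its highest value with DZNep (3.67 to 4.77), where Spp1 was also highest. In scr, where Spp1 was lowest, the sum was 3.01 to 3.68 CPM and overlapped both DZNep and DMSO. From DMSO to DZNep, Cd68 went from 2.47 to 3.94 CPM. Csf1r, Cd14 and Mrc1 were also higher with DZNep, while Lyz2 and Ptprc were lower. The part of this list in the Spp1 result was not tested.

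On the receptor side, integrin chains divided. With GSK126, 4 of the 10 tested genes rose and 0 fell by edgeR (7.15% and 5.54% of all genes tested), with a median of 0.206 against −0.00915 for all genes tested. At an unadjusted p under 0.05 7 were higher and 1 lower, and DESeq2 called 5 higher and 0 lower. With siEzh2 4 rose and 4 fell (13.2% and 12.9% of all genes), with a median of −0.169 against −0.0112. With DZNep 3 rose and 7 fell (31.2% and 31% of all genes), with a median of −0.415 against 0.00166. Itgb3, the beta3 chain that pairs with alphaV, rose in each comparison. It went from 43.0 ± 1.56 to 67.3 ± 4.59 CPM with siEzh2 (1.57-fold, log2 0.65 ± 0.05, adjusted p = 1.62e-08), and rose 1.17-fold with GSK126 (adjusted p = 0.00641) and 1.31-fold with DZNep (adjusted p = 2.27e-06). Itgav, the alphaV chain, rose by 0.59 ± 0.08 on the log2 scale with siEzh2 (157 ± 3.42 to 236 ± 8.99 CPM, adjusted p = 1.14e-05) and 1.36-fold with GSK126 (adjusted p = 0.000633). Its DMSO level was 230 ± 32.7 CPM, close to the siEzh2 level. With DZNep Itgav fell by 0.24 ± 0.08 (adjusted p = 0.0112), which failed without DMSO replicate 1 (adjusted p = 0.0737) or 2 (0.063).

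Other receptor chains were lower with siEzh2 than in scr. Itgb5, a further partner of alphaV, fell 1.43-fold with siEzh2 (−0.52 ± 0.08, adjusted p = 7.85e-05) and 1.90-fold with DZNep (−0.93 ± 0.08, adjusted p = 1.02e-08). Itga9 was 0.33 ± 0.06 lower with siEzh2 than in scr (adjusted p = 0.000305), and Fam20c 0.41 ± 0.08 lower (adjusted p = 0.0005). Itga9 stood at 52.8 CPM in DMSO, 80.2 in scr and 63.9 with siEzh2, so its siEzh2 mean was above DMSO. Fam20c stood at 9.79 CPM in DMSO, 11.9 in scr and 8.98 with siEzh2. Itga5 rose with GSK126 (0.29 ± 0.06, adjusted p = 0.00285). Itga8 was raised 1.62-fold with GSK126 (adjusted p = 0.0151), a call lost without DMSO replicate 3 (0.109), without GSK126 replicate 1 (0.0817) and in a fit of those libraries alone (0.0625). Itgb1, the most counted gene of the list at 909 ± 52.0 CPM in DMSO, fell with DZNep (−0.31 ± 0.06, adjusted p = 7.65e-05). With siEzh2 Itgb1 was at 0.16 ± 0.06 (adjusted p = 0.0467), a call lost under library totals alone (0.0721), with no count filter (0.0659), without scr replicate 1 (0.0889) or 3 (0.142) and without siEzh2 replicate 1 (0.155) or 2 (0.0811).

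Anoctamins comprise chloride channels and lipid scramblases of the plasma membrane and endoplasmic reticulum. Of the 9 other family members 5 were tested. By edgeR 0 were called with GSK126 in either direction, where 12.7% of all genes tested were called (adjusted p between 0.0781 for Ano1 and 0.855 for Ano2). At an unadjusted p under 0.05 1 was higher and 0 lower, and DESeq2 called 0. Ano6, the scramblase and most counted member at 159 ± 11.04 CPM in DMSO, rose 1.15-fold with siEzh2 (0.20 ± 0.05, adjusted p = 0.00737). Ano8 fell by 0.29 ± 0.08 with siEzh2 (adjusted p = 0.00599), a call lost without siEzh2 replicate 3 (0.0613), and by 0.30 ± 0.08 with DZNep (adjusted p = 0.00184). Ano10 fell with DZNep (−0.40 ± 0.05, adjusted p = 1.27e-06). Its change with siEzh2, 0.14 ± 0.05 (adjusted p = 0.0447), was lost when any 1 of the 6 libraries was left out (adjusted p from 0.0593 to 0.137), with the replicate number as a block (0.0569), with library totals alone (0.156) and with no count filter (0.185). Of 7 neuron markers, 2 or 3 reached 1 CPM in each group, mainly Tubb3 and Map2, while Snap25 had 1 count in all. The list summed to 55.2 to 59.9 CPM in DMSO, 71.7 to 73.3 with GSK126, 158 to 168 with DZNep, 66.0 to 69.4 in scr and 61.3 to 69.3 with siEzh2. The sum was thus above DMSO without overlap with GSK126, as Ano3 was. It was also above DMSO without overlap with siEzh2 and in scr, where Ano3 was lowest, and it was highest with DZNep. From DMSO to DZNep, Tubb3 went from 41.0 to 147 CPM and Map2 from 14.8 to 13.3. The part of the list in the Ano3 result was not tested.

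**Figure D4:**
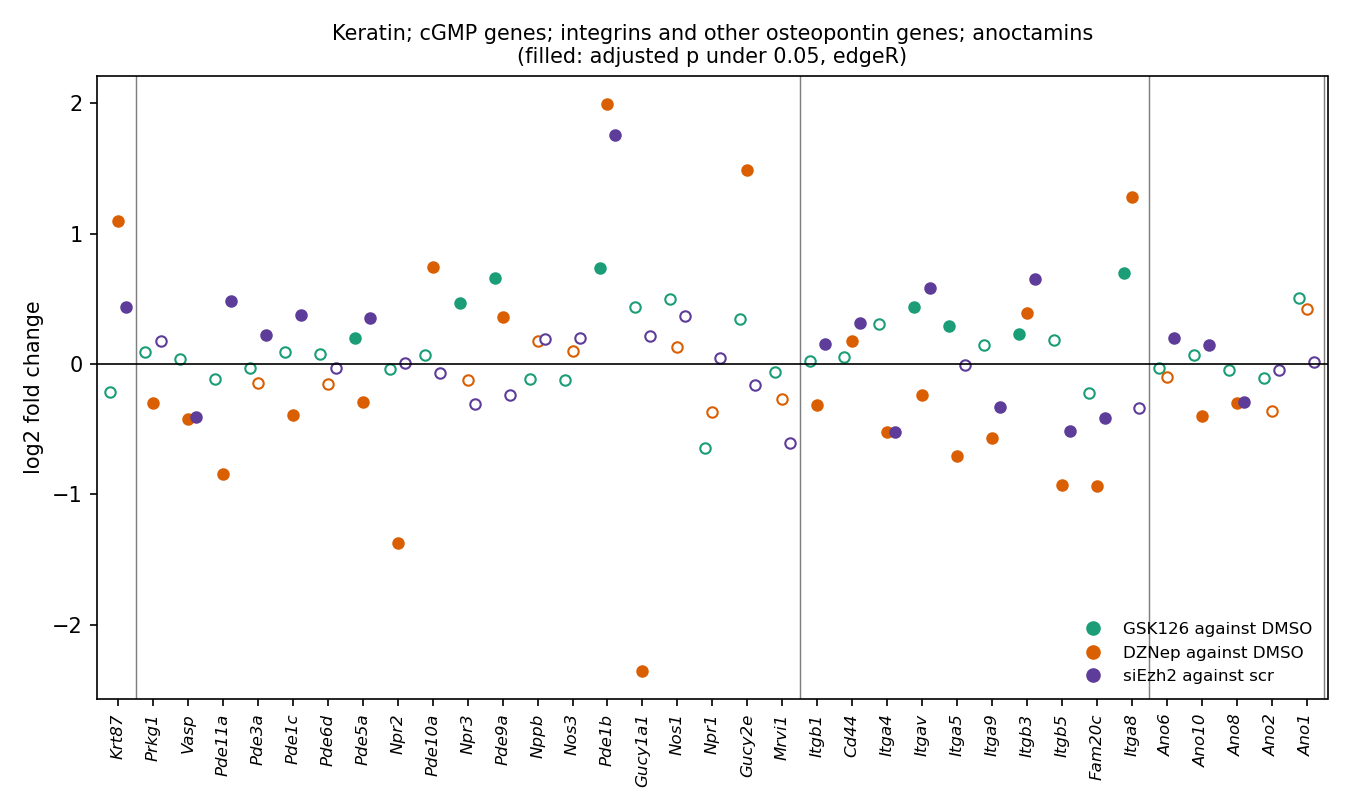
Log2 fold change (vertical axis) of the tested relatives and pathway genes of the 4 genes (horizontal axis, blocks of 1 keratin, 19 cGMP genes, 10 osteopontin receptor and kinase genes and 5 anoctamins, each sorted by DMSO level) with GSK126 against DMSO, DZNep against DMSO and siEzh2 against scr. Filled symbols passed an adjusted p of 0.05 in edgeR. Pde1b, at 1.76 with siEzh2 and 1.99 with DZNep, and Itgb3, at 0.65 with siEzh2, are filled above 0 in all 3 comparisons.

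The nearest tested genes on the chromosome did not share one pattern with the 4 genes. Beside Spp1, Sparcl1, a secreted matrix glycoprotein 356 kb before it by start, was 0.62 ± 0.09 higher with siEzh2 (adjusted p = 7.21e-05) and 0.56 ± 0.09 higher with DZNep (adjusted p = 4.37e-05). Pkd2, the polycystin 2 gene 24.3 kb after Spp1, rose by 0.24 ± 0.05 with siEzh2 (adjusted p = 0.00209) and fell with DZNep (−0.55 ± 0.05, adjusted p = 2.79e-08). Its level was 86.7 CPM in DMSO, 74.1 in scr and 87.6 with siEzh2. Neither Sparcl1 nor Pkd2 changed with GSK126 beyond the test's limit (adjusted p = 0.884 and 0.968). Atg101, an autophagy gene before Krt80, fell with siEzh2 (−0.28 ± 0.07, adjusted p = 0.00375) and rose with DZNep (0.44 ± 0.06, adjusted p = 7.29e-06). Around Prkg2 the nearest tested genes, Antxr2 and Hnrnpd, start over 1026 kb away, and with siEzh2 they were at −0.11 ± 0.06 (adjusted p = 0.158) and −0.07 ± 0.05 (adjusted p = 0.326). Around Ano3, Ccdc34 was at −0.01 ± 0.14 with siEzh2 (adjusted p = 0.971), and Muc15 at −0.62 ± 0.40 (adjusted p = 0.277). Muc15 fell with DZNep, from 31 counts over the DMSO libraries to 2 (adjusted p = 0.000445).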

How the data were processed

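RNA sequencing of 15 libraries was used, titled B16-F10 or, for DZNep, B16. The authors deposited raw read counts per Ensembl gene, with no normalization, and the submitters' processing notes name STAR, featureCounts and GRCm38. Versions, annotation version and strand use were not given in the sources used here, and reads of overlapping and antisense genes could be shared. Symbols and coordinates came from GENCODE M21 (GRCm38), which matched 45143 of 46078 identifiers.

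A single edgeR 4.0.16 model (R 4.3.3) held every library, with group as its term, TMM scaling, edgeR's low-count filter and robust quasi-likelihood testing. Adjusted p-values are Benjamini-Hochberg over 15152 genes, called under 0.05, and log2 fold changes carry the standard error. Totals of 33299524 to 64545747 counts limit scarce genes most. Replicates differed by more than sampling noise (chi-square per degree of freedom 5.77 to 37.8). Alternatives were DESeq2 1.42.0 size factors and its test, library totals, no filter, compared groups only, a replicate block and leaving out each library.

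The 4 genes and all lists were chosen with earlier results of these data known. Named relatives were, per list and comparison, the 2 with the smallest p called in each direction and the most counted gene. Named similar genes had the highest Pearson r of log2 CPM (prior count 2), and named neighbours were the nearest tested protein-coding genes.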

Additional observations from a re-analysis of the deposited data

How the results depend on the processing

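For the 4 genes in 8 comparisons, 378 of 384 values under the alternatives kept their direction and their side of the threshold, or for the comparisons given without a test stayed within the spread of replicates. The comparisons without a test use libraries that chose the genes and had no threshold to cross. All exceptions fell in the tested comparisons, so the pooled count overstates how well those held. The exceptions were Prkg2 for DZNep against DMSO without DMSO replicate 1, Prkg2 for DZNep against GSK126 without GSK126 replicate 1 or DZNep replicate 1, and Ano3 for DZNep against DMSO without DMSO replicate 3, without DZNep replicate 1 and in a fit of those libraries alone (log2 0.2154). Leaving out 1 library gave 0.3351 to 0.593 and −0.4991 to −0.3394 for these Prkg2 differences and 0.1224 to 0.265 for Ano3. A fit of the compared libraries alone, which leaves fewer libraries for the spread, gave 1135 genes changed by GSK126 in place of 1923, with 67.7% of calls higher in place of 56.4%, and 5 of the listed relatives in place of 8. Leaving out 1 library gave 1201 (without GSK126 replicate 2) to 2498 genes (without DMSO replicate 1), with 1249 without DMSO replicate 3, 1251 without GSK126 replicate 1 and 1216 without GSK126 replicate 3, and 5 (without GSK126 replicate 1) to 10 relatives. A replicate block gave 1937 genes for GSK126 and 9451 for DZNep against DMSO, 9833 for DZNep against GSK126 and 3965 for siEzh2 against scr, and changed no call of the 4 genes. The numbers share no source in the labels, and deviations of same-numbered libraries correlated between −0.176 and 0.0914, so they were not treated as pairs. Prkg2 and Krt80, at 136 to 1238 counts a group, are the genes that depth limits most.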
